A study of Mus musculus with 11 samples.

Results

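The costimulatory genes described here are Cd80, Cd86, Cd40, Icosl, Cd83, Ctla4 and Cd28, 7 of the 22380 protein-coding genes in the annotation. They were chosen by name, and a peak was counted for a gene when its position lay in the gene or no more than 20 kb from it on the mouse build mm9. Chromatin immunoprecipitation with sequencing (ChIP-seq) was carried out with antibodies against the transcription factors IRF4 and PU.1 in splenic B cells of B1-8i mice (129 background), whose gene-targeted antigen receptor recognises the hapten NP. In every group the cells, resting and mature at the start, were cultured with CD40L, with NP-Ficoll at 0.01 ng/mL and with the interleukins IL-5, IL-4 and IL-2. Harvest was at day 1, after activation but before differentiation, or at day 3, after differentiation into plasma cells. IRF4 was profiled in 3 libraries per day and PU.1 in 2 per day. The title of 1 day 3 library of each factor joins a pair of numbers. The 7 genes had 29 IRF4 regions and 76 PU.1 regions, a region being positions from the libraries of a factor merged when under 200 bp apart.

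T cells need a second signal beside their antigen receptor, and antigen-presenting B cells give it through surface ligands. CD80 and CD86 on the B cell bind the activating receptor CD28 and the inhibitory receptor CTLA-4, both mainly T cell proteins, and ICOSL binds the CD28 relative ICOS. CD40 is the receptor on the B cell for CD40L of helper T cells, the same ligand that was added to these cultures, and CD83 is a surface glycoprotein of activated B cells and dendritic cells. IRF4 binds DNA weakly on its own. It is known to bind with PU.1 at the Ets-IRF composite element (EICE) and with AP-1 factors such as BATF at the AP-1-IRF composite element (AICE).

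The sequences of 4 IRF4 regions are shown because they were called in 2 or more libraries and held a composite element, and not for their rank. Regions called in 1 library, at Cd83 (-10.1 kb from the start) and Icosl (25.8 kb past the start), also held an AICE and are not shown. Of the other 4 regions called in 2 or more libraries, 2 held an AP-1 site alone and 2 (1 each at Cd86 and Icosl) none of the searched motifs. Each sequence shown is the plus strand of mm9 read from the reference, with matches to the searched motifs in capitals. The motifs, searched on both strands in the 200 bp around a position, were the EICE (GGAA and GAAA with 2 bases between), an AICE without spacer (GAAA followed at once by TGANTNA), a spaced AICE (TTTC, 4 bases, then TGANTNA), the AP-1 site (TGANTCA, which can lie inside an AICE), a PU.1 site (GAGGAAGT) and the IRF pair element ISRE (GAAA and GAAA with 2 bases between).
Ctla4 intron, chr1:60970262-60970461, with 2 spaced AICE: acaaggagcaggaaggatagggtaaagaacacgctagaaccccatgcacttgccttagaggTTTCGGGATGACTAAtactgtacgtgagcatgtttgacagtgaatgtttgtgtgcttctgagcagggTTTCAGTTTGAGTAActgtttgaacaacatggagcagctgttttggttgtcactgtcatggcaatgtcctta
Cd86 upstream region, chr16:36684799-36684998, with 1 spaced AICE that contains an AP-1 site: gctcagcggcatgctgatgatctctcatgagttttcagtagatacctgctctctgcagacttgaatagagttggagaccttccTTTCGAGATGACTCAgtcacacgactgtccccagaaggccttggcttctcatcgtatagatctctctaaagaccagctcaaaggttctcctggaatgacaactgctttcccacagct
Icosl upstream region, chr10:77526082-77526104, motif core with a PU.1 site on the minus strand followed by an AICE without spacer: ACTTCCTCtttaGAAATGAATCA
Icosl downstream region, chr10:77549977-77550176, with a PU.1 site and, on the minus strand, an EICE: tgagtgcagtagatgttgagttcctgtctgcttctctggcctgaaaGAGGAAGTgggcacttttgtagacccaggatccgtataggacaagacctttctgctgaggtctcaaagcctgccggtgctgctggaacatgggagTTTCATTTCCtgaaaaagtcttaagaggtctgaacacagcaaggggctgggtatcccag

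Of the 8 IRF4 regions near the genes that were called in 2 or more libraries, 2 held a spaced AICE, 1 an AICE without spacer, 1 an EICE and 4 an AP-1 site. Among all peaks of the authors' IRF4 group lists, the spaced AICE was found in 3.93% on day 1 and 3.56% on day 3. The EICE was found in 22.0% and 30%, the AP-1 site in 29.6% and 21.6% and the PU.1 site in 9.09% and 13.2%. The AICE without spacer, counted together with a further pattern (GAAA, 4 bases, then TGANTNA), was found in 4.13% and 2.95%. Windows centred 2000 bp to either side of the day 3 peaks held the spaced AICE in 0.356% and the EICE in 2.14% of cases. A match describes these letters only and does not show which protein bound there.

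The libraries differed in length. The day 1 IRF4 lists had 825, 9326 and 8929 peaks, those of day 3 had 2784, 1408 and 5595, and PU.1 lists between 27321 and 38052. The authors' fold enrichment over input, the value given for each peak, began at 20.9 to 21.9 in the day 1 IRF4 lists and at 15 to 16.9 in those of day 3. It is used here to rank peaks within a list and, in 1 count of IRF4 peaks, as a common lower limit. The lists hold neither read counts nor transcripts, so depth is unknown and gene expression was not measured. Of 10 B cell markers, 10 had a PU.1 group-list peak on each day, and 8 and 4 an IRF4 one. PU.1 was also listed at 12 and 11 of 16 T cell markers and at 13 and 11 of 14 dendritic cell and macrophage markers, beside 52.2% and 54.3% of all genes. IRF4 was listed at 1 and 2 of these T cell markers and at 6 and 4 of the dendritic cell and macrophage markers. Over all genes the IRF4 shares were 10.0% and 8.45%.

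Counting over the authors' group lists (1 per factor and day), 2 of the 7 genes had an IRF4 peak on day 1 (Cd86 and Icosl) against 10.0% of all genes. On day 3 it was 3 of 7 (Icosl, Ctla4 and Cd28) against 8.45%. Icosl was the member found on both days. Counting a peak in any library, it was 4 of 7 on day 1 (44.4% of all genes) and 6 of 7 on day 3 (24.4%). With only the stronger 50% of each list no member was left on day 1. PU.1 had a group-list peak at 6 of 7 genes on day 1, all but Cd28, against 52.2% of all genes, and at 7 of 7 on day 3 against 54.3%. In every one of the 4 PU.1 libraries each of the 7 genes had at least 1 peak, as had 50.8% of all genes.

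**Figure D1:**
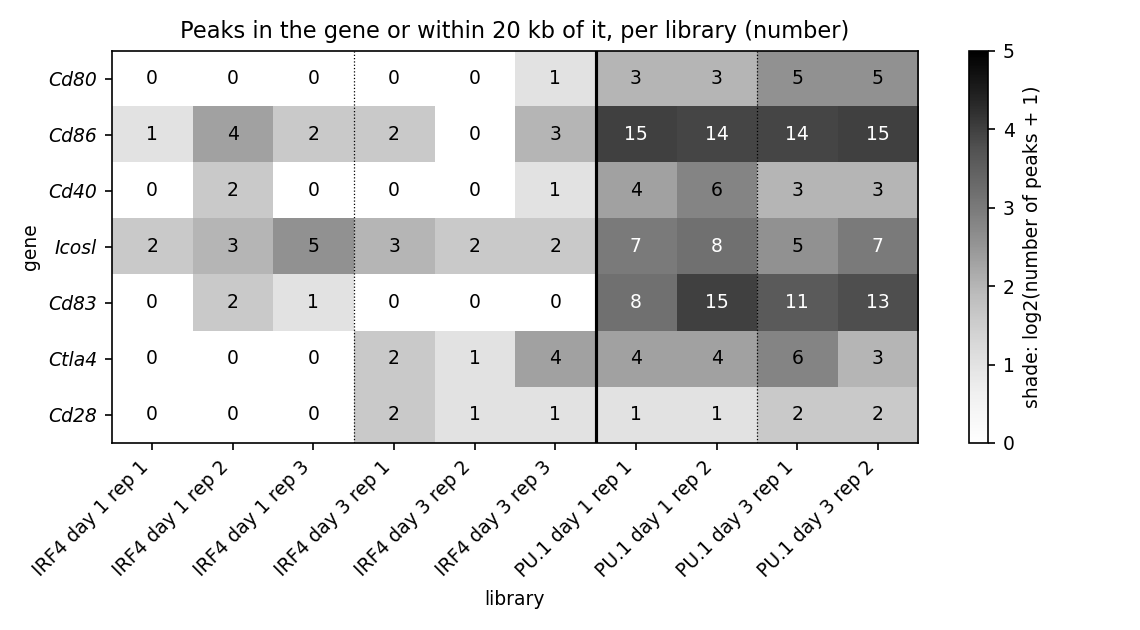
Number of peaks in each gene or within 20 kb of it (rows) in each of the 10 libraries (columns); the shade follows log2(number + 1), the solid line parts IRF4 from PU.1 and dotted lines part the days. Ctla4 and Cd28 have 0 IRF4 peaks in the 3 day 1 libraries and 1 to 4 in each day 3 library, while Icosl has 2 to 5 in all 6.

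Icosl, which encodes the ligand of ICOS, was the member with the steadiest IRF4 signal. Its IRF4 peaks numbered 2, 3 and 5 in the day 1 libraries and 3, 2 and 2 in those of day 3, so the days overlap. Genes with an IRF4 peak in all 6 libraries made up 2.02% of all genes, and Icosl was the only member among them. The region 6.0 kb upstream of its start, whose motif core is printed above, was called in all 6 IRF4 libraries and all 4 PU.1 libraries. It lies in a coding exon of the neighbouring gene Dnmt3l, reaching into its 3′ UTR, and is nearer to the start of Icosl than to any other annotated start.

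Fold enrichment of IRF4 at that upstream region measured 26.2, 45.5 and 56.7 in the day 1 libraries, then 37.8, 20 and 27.7 in those of day 3. Within the lists this placed it between the top 6.81% (day 1 replicate 3) and the top 70.6% (day 3 replicate 2). PU.1 ranked in the top 2.06% to 2.54% of its 4 lists there, and the positions of both factors lay a median of 15 bp apart.

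The region 18.0 kb past the Icosl start, which is intergenic, held the EICE and was called in 3 day 1 and 2 day 3 IRF4 libraries. IRF4 ranked in the top 29.2%, 5.22% and 7.84% of the day 1 lists and in the top 18.6% and 4.76% of day 3 replicates 1 and 2, and was not listed in day 3 replicate 3. PU.1 was among the strongest places of the genome there, at ranks 69 and 28 in the day 1 lists, then 71 and 62 in those of day 3. The IRF4 and PU.1 positions lay a median of 11 bp apart. A further region 23.6 kb from the start was called in 2 day 1 libraries and 1 day 3 library, also with PU.1 in all 4 libraries.

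Ctla4 and Cd28, the receptor genes, had IRF4 peaks in the day 3 libraries and in no day 1 library. For Ctla4 the day 1 libraries had 0, 0 and 0 peaks and the day 3 libraries 2, 1 and 4. For Cd28 they had 0, 0 and 0 and then 2, 1 and 1. The groups do not overlap for either gene, although the longest 2 IRF4 lists are of day 1. With Cd80, they were the 3 members with a peak in a day 3 library and in no day 1 library, a pattern of 5.34% of all genes. Genes with a peak in every day 3 library and no day 1 library made up 0.152% of all genes (34), and Ctla4 and Cd28 are 2 of them. In all, 8 of 8 IRF4 regions at these genes came from day 3 libraries alone, against 6 of 21 at the other 5 members and 4065 of 20058 over the genome.

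**Figure D2:**
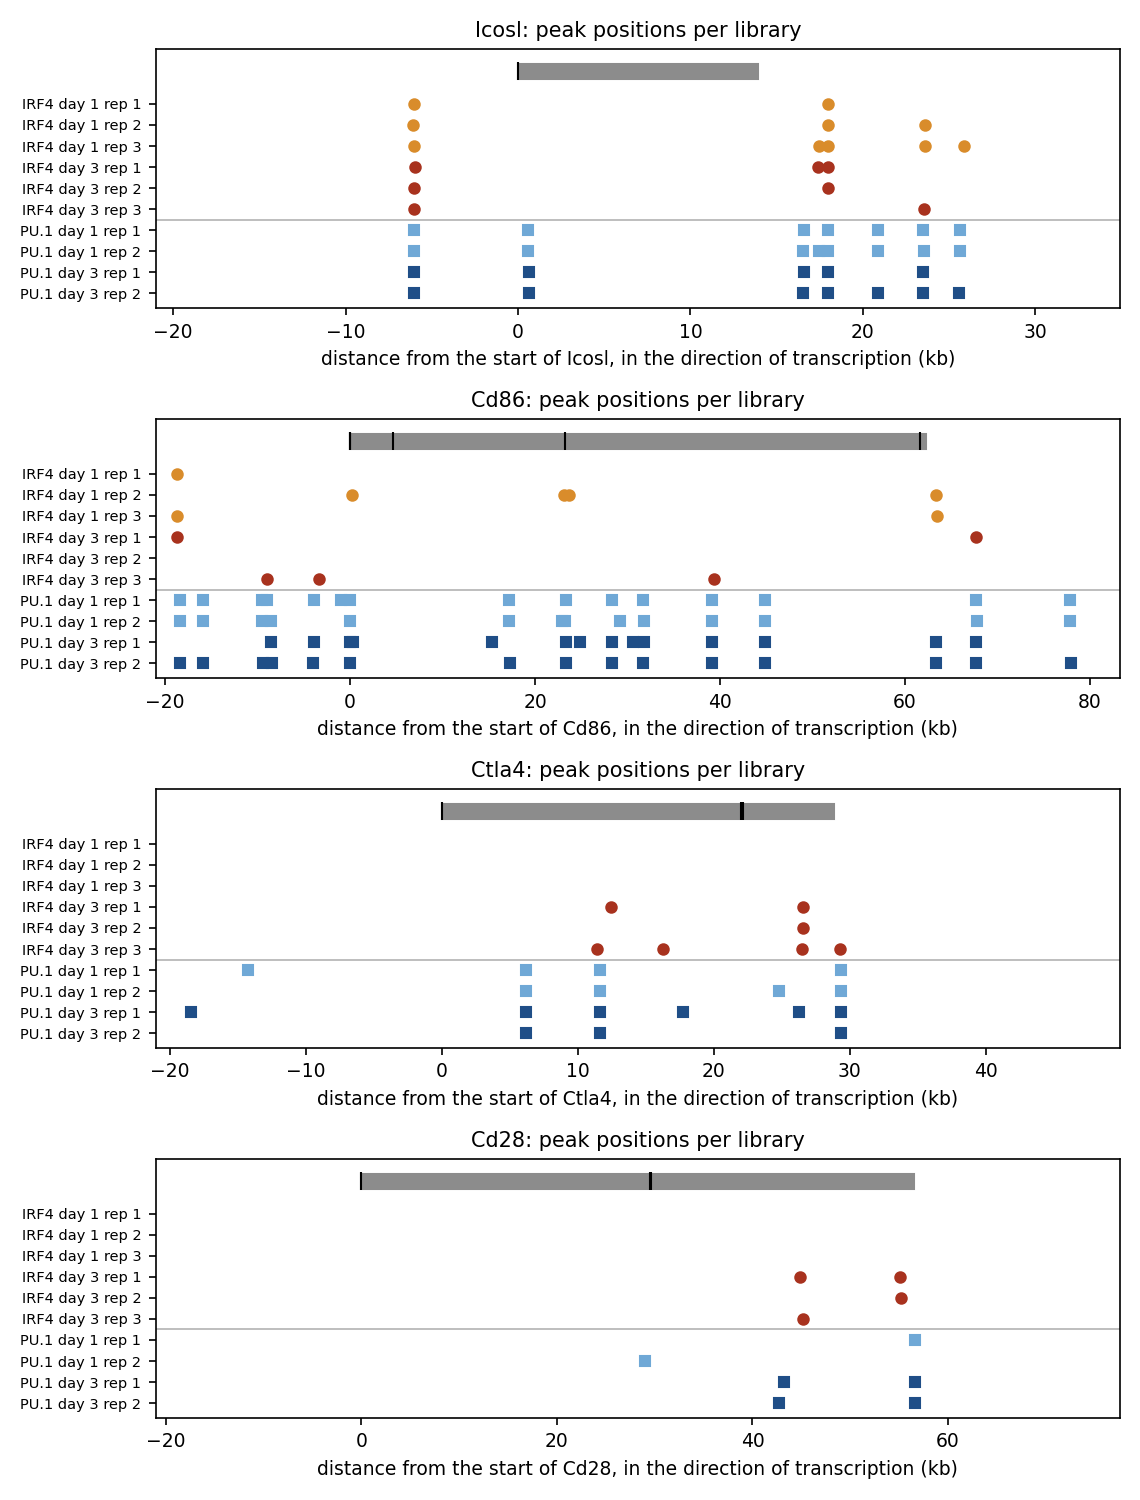
Peak positions (circles IRF4, squares PU.1; lighter day 1, darker day 3) of each library along 4 genes, in kb from the gene start; the grey bar is the gene and black ticks are annotated transcript starts. IRF4 circles at Ctla4 and Cd28 lie in day 3 rows alone, and the column of IRF4 circles at Icosl -6.0 kb runs through all 6 rows.

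The leading Ctla4 region lies in an intron, 4.3 kb past the nearest annotated transcript start and 26.5 kb past the most upstream one (peak interval chr1:60970064-60970570). IRF4 enrichment was 50.7, 43.8 and 78.5 in the 3 day 3 libraries. These values ranked in the top 8.33%, 9.02% and 1.86% of their lists, and PU.1 was not listed within 200 bp in any of its libraries. The nearest PU.1 call, in 1 day 3 library, sat in the adjoining coding exon at position 60970096, and its interval (chr1:60969824-60970215) overlaps that of the IRF4 region. The 4 remaining Ctla4 regions were each called in 1 day 3 library.

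PU.1, by contrast with IRF4, was found at Ctla4 on both days. Its leading region lay just past the end of the gene (position 60973192), with enrichments of 287 and 312 in the day 1 libraries, then 518 and 510 in those of day 3, in the top 1.38% to 3.22% of the lists. It held a PU.1 site, and IRF4 was called 110 bp from it in day 3 replicate 3. Further PU.1 regions were called in all 4 libraries 6.2 kb and 11.6 kb past the gene start.

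At Cd28 the IRF4 regions were weaker. The group-list region lies in the 3′ UTR (chr1:60828652-60828945), held the AP-1 match TGAATCA and was called in day 3 replicates 1 and 2 with enrichments of 22.2 and 24.7. The others lay in an intron, 44.9 kb and 45.2 kb past the gene start, in 1 library each (22.5 and 22.3). PU.1 was not called within 200 bp of any of the 3 regions. No Cd28 region of PU.1 was called in all 4 libraries, as were 24.7% of all PU.1 regions.

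Since the day 1 lists end at higher enrichments, the count was repeated with peaks of at least 21.9 in every IRF4 list, a setting chosen after the values were seen. Ctla4 then had 1, 1 and 2 peaks and Cd28 2, 1 and 1 on day 3, the Cd28 peaks lying close to that limit (22.2 to 24.7). This setting only removes peaks, so the day 1 counts of 0 could not change. It cannot show whether day 1 peaks lay below the ends of the day 1 lists. The distance rule does change the day 1 count of Ctla4. With 50 kb around genes, Ctla4 also gains 2 IRF4 regions of both days that lie 25.0 kb and 25.6 kb past its end, so the lack of day 1 peaks holds for the gene and its 20 kb surroundings and not for the wider locus.

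Ctla4 and Cd28 encode mainly T cell proteins, so peaks at T cell marker genes are given beside them. Of 16 T cell markers, 0, 5 and 5 had an IRF4 peak in the day 1 libraries and 2, 1 and 4 in those of day 3. In none of the 6 IRF4 libraries did 7 of them have one (Cd3d, Cd3e, Cd3g, Cd8a, Lat, Thy1 and Foxp3). The part of other cells in the Ctla4 and Cd28 peaks was not tested.

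The call pattern of Ctla4 over the 10 libraries was shared by 24 other genes, Cd28 among them. Ranked by the weakest of their calls, the nearest of these to the top were Tbc1d16, Oxr1 and Cab39l for Ctla4, and Ctla4, Tbc1d16 and Oxr1 for Cd28. The pattern of Cd86 was shared by 128 other genes and that of Icosl by 445.

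**Figure D3:**
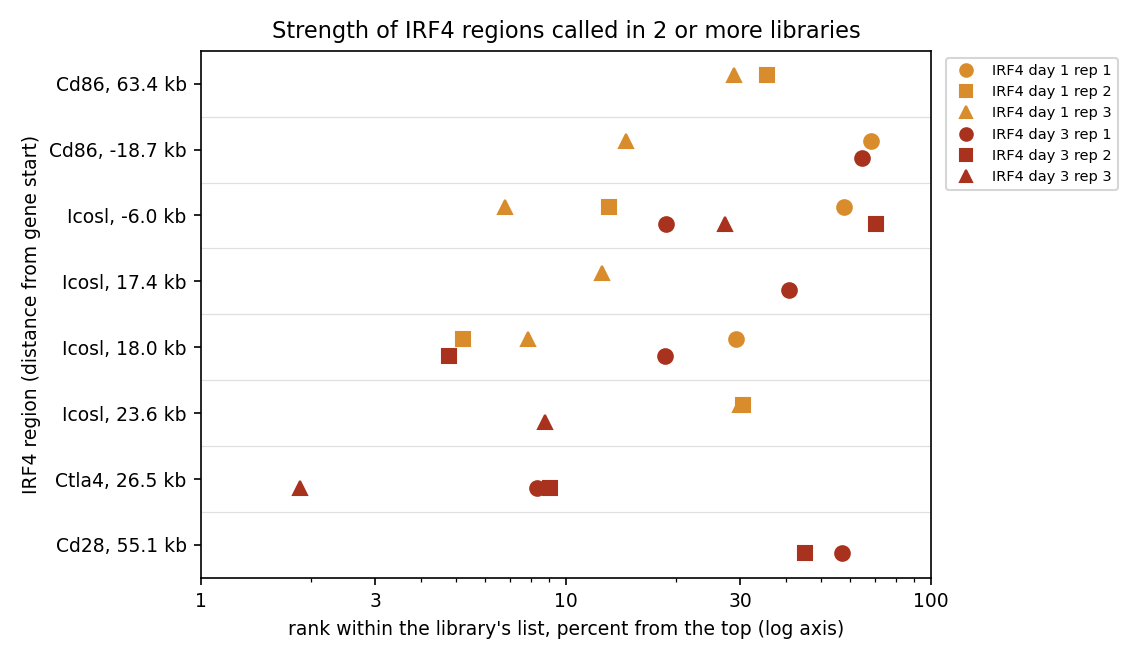
Rank of the 8 IRF4 regions called in 2 or more libraries within each library's list, in percent from the top on a log axis; colour gives the day and the marker the replicate. The Ctla4 intron lies in the top 9.02% of each day 3 list, and the Icosl region at 18.0 kb in the top 29.2% of the 5 lists that hold it.

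Cd86, a ligand of CD28 and CTLA-4, had many PU.1 peaks and scattered IRF4 peaks. The day 1 libraries had 1, 4 and 2 IRF4 peaks, and those of day 3 had 2, 0 and 3. Of the 9 regions, 7 were called in a single library, beside 79.1% of all IRF4 regions. The region with the spaced AICE, 18.7 kb upstream of Cd86 and closer to the start of Ildr1 (-9.2 kb), was called in day 1 replicates 1 and 3 and day 3 replicate 1. Its enrichments were 24.4, 42.1 and 20.8. PU.1 was not called within 200 bp of it, as at the Ctla4 intron; the nearest PU.1 region, at position 36684534, was called in 3 PU.1 libraries.

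The other Cd86 region of the day 1 list lay just past the end of the gene (chr16:36602603-36603045), was called in day 1 replicates 2 and 3 and held none of the motifs in the 200 bp around its position. The window around the PU.1 position of the same place held an ISRE. PU.1 was listed there in the 2 day 3 libraries and in no day 1 library. Of 23 PU.1 regions at Cd86, 6 were called in all 4 libraries, beside 24.7% of all PU.1 regions. These 6 include the promoter, at the most upstream start (position 36666183). Its enrichments were 82.7 and 95.0 on day 1 and 73.8 and 55.7 on day 3. Another lies at an internal transcript start (position 36642849), with 79.2 and 144 on day 1 and 218 and 201 on day 3.

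Cd40 held one of the strongest PU.1 places near any of the 7 genes, in the first part of the gene 0.9 kb past its start (intron, position 164882040). PU.1 enrichments were 491 and 782 on day 1 and 856 and 605 on day 3, within the top 0.286% to 0.860% of the lists. IRF4 was called a median of 14.5 bp from its PU.1 positions in day 1 replicate 2 alone, with an enrichment of 37.5. The 200 bp window held none of the searched motifs. No Cd40 region of IRF4 was called in more than 1 library, and 79.1% of all IRF4 regions were called in 1 library.

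Cd83 and Cd80 had PU.1 without a repeated IRF4 region. Cd83 had 18 PU.1 regions, 6 of them in all 4 libraries, beside 24.7% of all PU.1 regions. The leading ones at Cd83 lay at -19.7 kb from the start (98.2, 136, 196 and 117) and in an intron 5.8 kb past the start (93.4, 87.8, 111 and 105). The 3 IRF4 regions of Cd83 came from 1 day 1 library each, a pattern (day 1 and no day 3 library) of 25.3% of all genes. The one at -10.1 kb held an AICE without spacer, and the one 4.0 kb past the start coincided with PU.1 in all 4 libraries. Cd80, the other ligand of CD28 and CTLA-4, had 7 PU.1 regions, of which the one 1.6 kb upstream was called in all 4 libraries (28.7, 65.0, 44.9 and 30.3). Its sole IRF4 peak, in day 3 replicate 3, ranked in the top 87.6% of that list.

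Summed over the 7 genes, the day 1 libraries had 3, 11 and 8 IRF4 peaks and the day 3 libraries 9, 4 and 12. Their means, 7.33 ± 4.04 and 8.33 ± 4.04 (SD, n = 3), did not differ beyond the spread (difference 1.00, two-sided exact permutation p = 0.70, adjusted p = 0.875 over 5 tests). Leaving out day 1 replicate 1 gave -1.17, and leaving out day 3 replicate 3 gave -0.833. As a share of each list, the means were 0.190% ± 0.151 and 0.274% ± 0.0551 (SD, n = 3; exact permutation p = 0.40, adjusted p = 0.875). Day 1 replicate 1, with 3 of 825 peaks, had the highest share (0.364%), and without it the difference went from 0.0836 to 0.170 percentage points (exact permutation p = 0.10, the smallest possible). PU.1 peaks averaged 46.5 ± 6.36 and 47 ± 1.41 (SD, n = 2; exact permutation p = 1), and their share of the lists 0.144% and 0.137% (exact permutation p = 0.667, n = 2). These designs cannot give a p below 0.1 for IRF4 and 0.33 for PU.1, and the labels do not say that replicates were separate animals or cultures.

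A peak of the same day's PU.1 group list lay under 200 bp from 66.7%, 54.5% and 37.5% of the IRF4 peaks near the 7 genes on day 1 (2 of 3, 6 of 11 and 3 of 8 peaks), and 33.3%, 50% and 25% on day 3 (3 of 9, 2 of 4 and 3 of 12). The days overlap. The difference of -16.8 percentage points was within the spread between libraries (means 52.9% ± 14.7 and 36.1% ± 12.7, SD, n = 3; two-sided exact permutation p = 0.200, adjusted p = 0.875). It was -9.91 without day 1 replicate 1, -40.3 with 5 kb around genes, -7.03 with 50 kb, -44.4 with equal list lengths and -37.0 when peaks under 500 bp apart counted as shared. Among all peaks of the same libraries the shares were 77.7%, 26.4% and 24.8% in the day 1 libraries, then 56.2%, 66.0% and 41.3% in those of day 3. The share near the 7 genes was thus the lower of the 2 in day 1 replicate 1 and in the 3 day 3 libraries, a difference that was not tested.

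**Figure D4:**
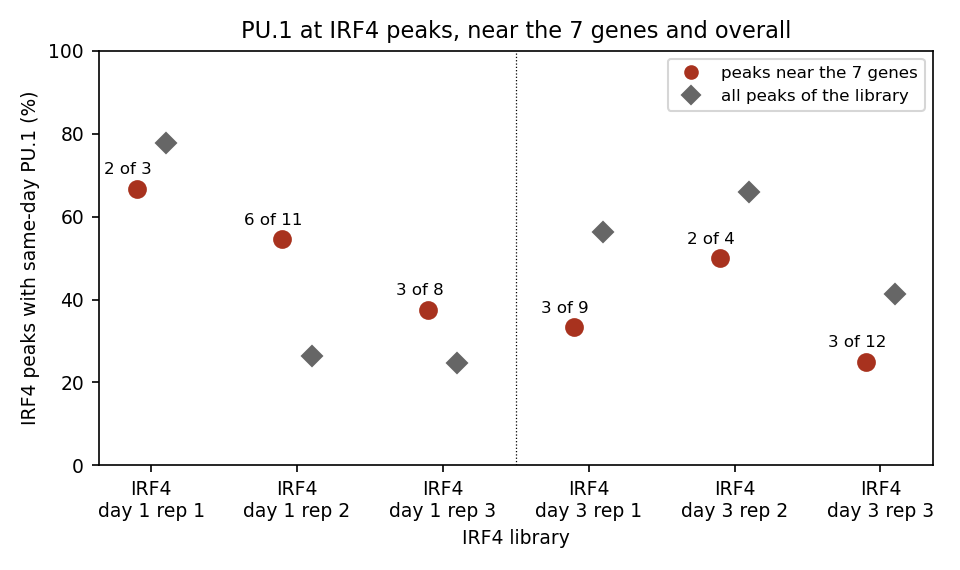
Share of IRF4 peaks with a same-day PU.1 group-list peak under 200 bp away (%), for peaks near the 7 genes (red circles, with counts) and for all peaks of the library (grey diamonds), in the 6 IRF4 libraries. Near the 7 genes the share lies between 25% and 66.7%, from 3 to 12 peaks per library.

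Other costimulatory genes fell into groups. In the B7-CD28 family beyond the members, 3 of 8 genes had an IRF4 group-list peak on each day, beside 10.0% and 8.45% of all genes: Cd274 and Pdcd1lg2, which encode the ligands of the inhibitory receptor PD-1, and Btla, an inhibitory receptor of lymphocytes. Cd274 and Pdcd1lg2 are neighbours and are not independent in this count, since they share the peak at chr19:29465672-29466037, called in 2 day 1 and 3 day 3 libraries. Cd274 also had a region 2.1 kb upstream of its start in 2 day 1 and 3 day 3 libraries. Btla had an intronic region with PU.1 in all 4 PU.1 libraries, called in 3 day 1 libraries and 1 day 3 library. That region was in the day 1 group list alone. The Btla peak found in the group lists of both days lay in its 3′ UTR, called in 2 day 1 and 2 day 3 libraries. Icos and Pdcd1 had no group-list IRF4 peak.

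Of 8 TNF family genes (Cd40lg, Cd70 and Cd27 among them), 0 had an IRF4 group-list peak on either day, beside 10.0% and 8.45% of all genes. In single libraries 0, 4 and 3 of them had an IRF4 peak on day 1, and 0, 0 and 6 on day 3. These lists differ in length, and the share of all genes per library is not given here. PU.1 had a group-list peak at 8 of these genes on day 1 and 6 on day 3, beside 52.2% and 54.3% of all genes. Of 5 genes of TRAF adaptors, which carry the CD40 signal, Traf1 was found on both days and Traf5 on day 3. Traf1 had regions 15.7 kb and 1.9 kb upstream, each in 2 day 1 and 3 day 3 libraries with PU.1 in all 4, and a pair of intronic regions in 2 day 1 libraries and no day 3 library. The Traf5 intron region was called in 2 day 3 libraries.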

How the data were processed

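Peak lists of 10 ChIP-seq libraries and 4 group lists were used. The input library enters no comparison. QuEST gave the enrichment relative to input after mapping to mm9, according to the series' design text, and the submitters' processing notes name the same build. The QuEST version, its thresholds and the aligner were not given in the sources used here. The value per peak is the fold enrichment (a linear ratio) the authors deposited. Every group-list line was found among the library lists of its group (for PU.1, all in replicate 1), and repeated lines (7 and 5 in the PU.1 lists) were counted once. Genes came from GENCODE M1, on mm9; no peak ended beyond its chromosome.

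Peaks within 20 kb of a gene, regions (positions under 200 bp apart), motifs and two-sided exact permutation tests over libraries were computed in Python 3.11.15 with numpy 2.4.6, tested on simulated data, and 5 tests were adjusted by the Benjamini-Hochberg method. Replicate numbers are those of the sample descriptions. The rule named all 7 members, their IRF4 regions in 2 or more libraries, and listed pathway genes with a group-list peak. Members and lists were chosen with earlier results of these data known, and the spaced AICE pattern was added after the data were seen. The pattern set beforehand had the IRF site in the other orientation. It was still searched, and its matches were counted with those of the AICE without spacer. Alternatives were 5 kb and 50 kb windows, stronger peaks, equal list lengths, other overlaps and left-out libraries. Whether deposited positions count from 0 or 1 is not given.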

Additional observations from a re-analysis of the deposited data

How the results depend on the processing

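No test could pass the 0.05 threshold, since these designs cannot give an exact permutation p below 0.1 for IRF4 or 0.33 for PU.1. Under the alternatives run, p lay between 0.10 and 1. The day difference in IRF4 peaks was -0.667 with the stronger 50% of each list and between -1.17 and 3.17 without single libraries (-0.833 without day 3 replicate 3). The difference in the IRF4 share of the lists lay between 0.0332 and 0.170 percentage points without single libraries. It was 0.110 with 5 kb around genes and 0.136 with the stronger 50% (exact permutation p = 0.10 for each, the smallest possible). With 50 kb it was 0.151 and with equal list lengths 0.121 (exact permutation p = 0.40 for each). The difference in PU.1 peaks was -2 with equal list lengths and between -4 and 5 without single libraries (-0.500 without day 3 replicate 2). Its share was 0.00286 with 5 kb around genes, 0.00785 with the stronger 50%, and between -0.0164 and 0.00328 without single libraries. The share of IRF4 peaks with PU.1 differed by -24.5 to -9.91 without single libraries, by -40.3 with 5 kb around genes, by -7.03 with 50 kb, by -44.4 with equal list lengths and by -37.0 with an overlap under 500 bp (exact permutation p = 0.10). With 50 kb around genes 4 members had an IRF4 group-list peak on day 1 and 6 on day 3. The share of all genes at 50 kb is not given here. The counts were also 4 and 6 when any library counted at 20 kb, beside 44.4% and 24.4% of all genes. The members behind equal counts need not be the same. With the stronger 50% the day 1 count was 0. Regions near the members called in every IRF4 library numbered 1, with 0 at 5 kb, 2 at 50 kb and 1 to 2 without single libraries. Those of every day 3 and no day 1 library numbered 1 to 2 without single libraries, those of every day 1 and no day 3 library 0 to 1, and those of 1 library 12 to 22.

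With the replicate block, the IRF4 difference was 1 (exact sign-flip permutation p = 1). This test cannot give a p below 0.25 with 3 pairs or 0.50 with 2, so it bears on no call. Same-numbered IRF4 libraries of the 2 days correlated at -0.27, 0.08 and -0.10 in their deviations over 20058 regions. The highest value, 0.44, was that of day 1 replicate 1 with day 3 replicate 3. Whether same-numbered libraries share more than a number cannot be told from these values. Replicate numbers here are those of the descriptions. The titles number the day 3 libraries differently, and the pairs given by the titles correlated at 0.06 and 0.08.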

Other observations

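The genes Cd28, Ctla4 and Icos lie side by side on chromosome 1, and the span from Cd28 to Icos with 20 kb on either side was counted after the values had been seen. It held 2, 2 and 2 IRF4 peaks in the day 1 libraries and 6, 4 and 7 in those of day 3, while the PU.1 lists had 12 and 9 peaks there at either day. The day 1 peaks lie between Ctla4 and Icos or beyond Icos. A region 25.0 kb past the end of Ctla4 (chr1:60997313-60997991) was called in all 6 IRF4 libraries, with enrichments of 21.8, 25.6 and 22.9 in the day 1 libraries, then 30, 27.9 and 41.5 in those of day 3.

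The region next to it, 25.6 kb past Ctla4 and 36.5 kb upstream of Icos, was called in 2 day 1 and 3 day 3 libraries and in all 4 PU.1 libraries. IRF4 enrichment there was 34.9 and 41.1 in day 1 replicates 1 and 3 and 43.5, 40.4 and 124 on day 3, where replicate 3 placed it in the top 0.572% of its list. It held an EICE on the minus strand at its centre, shown in capitals and printed because it sets this region beside the Ctla4 intron with its spaced AICE.
Region between Ctla4 and Icos, chr1:60998202-60998401: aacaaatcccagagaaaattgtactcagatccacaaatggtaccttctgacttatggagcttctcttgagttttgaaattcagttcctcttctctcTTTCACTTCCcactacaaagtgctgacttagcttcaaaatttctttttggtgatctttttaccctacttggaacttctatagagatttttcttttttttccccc

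Within this locus, 1 region was thus called with PU.1 at an EICE in IRF4 libraries of both days. Another, called in day 3 libraries alone, held a pair of spaced AICE, a pattern added after the data were seen. It had no PU.1 position within 200 bp, but the interval of a PU.1 peak from 1 day 3 library overlaps it. Other regions do not follow this split. The region called in all 6 IRF4 libraries held none of the searched motifs and had PU.1 in 2 libraries. The region at position 60973082 was called in day 3 replicate 3 alone, with PU.1 in all 4 libraries and no EICE. Whether these places differ between the days was not tested.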
